A study of Mus musculus with 12 samples.

Results

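Leukotriene and prostaglandin synthesis genes were described in 4 fractions of monocytes and macrophages (Mo-Macs) from lesions of IgE-CAI. IgE-CAI is a mouse model of IgE-dependent skin allergy. The genes were taken by symbol from the count table and number 10 of 37775: Alox5, Alox5ap, Lta4h, Ltc4s, Alox15, Ptgs1, Ptgs2, Hpgds, Ptges and Tbxas1. All 10 passed the filter on low counts and were tested.

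WT BALB/c mice were given 300 μg of anti-TNP IgE intravenously and challenged on the next day with 10 μg of TNP-conjugated OVA in the ear. On day 5 after the challenge, CD45+CD11b+SiglecF-Ly6G- cells were sorted into Ly6ChiPD-L2lo (Classical mono), Ly6ChiPD-L2hi (Early CMDM), Ly6CloPD-L2hi (Late CMDM) and Ly6CloPD-L2lo (Resident-like) cells. CMDM stands for classical monocyte-derived macrophage, and all 4 fractions came from challenged skin. Each fraction was sequenced in 3 libraries of 5000 to 80000 cells with total counts of 12537178 to 19844113, and the labels do not state whether the libraries came from separate mice. The p-values therefore measure the spread between these samples, which may be technical.

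Eicosanoids are lipid mediators made from arachidonic acid, which phospholipases release from membranes. In the leukotriene branch, 5-lipoxygenase acts with its activating protein FLAP to form LTA4. LTA4 hydrolase turns LTA4 into LTB4, a leukocyte attractant, and LTC4 synthase turns it into LTC4, the parent of the cysteinyl leukotrienes. In the prostanoid branch, COX-1 or COX-2 forms PGH2, from which terminal synthases make PGD2, PGE2 or thromboxane A2. Macrophages, mast cells and other skin cells are known sources of these mediators.

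The promoters of 5 of the genes are shown because Alox5, Ltc4s and Hpgds were highest in the same fraction, whereas Ptgs1 and Ptges were both high in Early CMDM. Each sequence, from RefSeq on GRCm38.p6, runs 5′ to 3′ on the gene's strand from 250 bases before to 50 bases after the start. Capitals mark a match on either strand to GAGGAAG (a PU.1 motif), TTC and GAA with 4 bases between them (a STAT6 motif) or TATAAA (the TATA box).
Alox5: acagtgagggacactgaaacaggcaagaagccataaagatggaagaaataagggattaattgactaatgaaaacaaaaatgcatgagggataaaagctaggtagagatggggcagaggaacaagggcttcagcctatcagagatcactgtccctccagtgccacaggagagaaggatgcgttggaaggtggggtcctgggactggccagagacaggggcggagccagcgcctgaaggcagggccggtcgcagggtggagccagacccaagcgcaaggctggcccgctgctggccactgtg
Ltc4s: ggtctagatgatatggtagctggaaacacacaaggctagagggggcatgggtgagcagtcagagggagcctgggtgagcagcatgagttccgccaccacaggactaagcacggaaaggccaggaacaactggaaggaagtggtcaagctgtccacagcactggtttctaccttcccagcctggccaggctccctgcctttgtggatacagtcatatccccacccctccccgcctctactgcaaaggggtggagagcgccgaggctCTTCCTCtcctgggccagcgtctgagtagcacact
Hpgds: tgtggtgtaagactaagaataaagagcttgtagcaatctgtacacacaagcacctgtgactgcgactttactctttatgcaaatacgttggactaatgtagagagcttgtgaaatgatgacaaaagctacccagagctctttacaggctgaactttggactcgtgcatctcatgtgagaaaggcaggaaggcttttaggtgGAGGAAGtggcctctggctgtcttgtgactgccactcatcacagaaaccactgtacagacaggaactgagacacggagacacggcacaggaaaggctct
Ptgs1: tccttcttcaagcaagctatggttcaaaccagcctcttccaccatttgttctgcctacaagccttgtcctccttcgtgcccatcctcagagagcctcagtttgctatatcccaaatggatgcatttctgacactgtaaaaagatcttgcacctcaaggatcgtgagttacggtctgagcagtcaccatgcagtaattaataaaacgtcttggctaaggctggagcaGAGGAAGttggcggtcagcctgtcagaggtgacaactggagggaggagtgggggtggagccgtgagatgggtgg
Ptges: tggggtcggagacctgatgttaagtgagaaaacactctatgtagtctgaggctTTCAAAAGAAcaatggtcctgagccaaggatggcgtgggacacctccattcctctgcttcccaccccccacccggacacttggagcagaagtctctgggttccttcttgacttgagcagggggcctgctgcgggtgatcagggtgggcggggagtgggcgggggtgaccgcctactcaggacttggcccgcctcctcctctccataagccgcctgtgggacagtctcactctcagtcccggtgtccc
These windows lie at chr6:116461129-116461428 (minus strand), chr11:50238483-50238782 (minus), chr6:65144681-65144980 (minus), chr2:36230176-36230475 (plus) and chr2:30903248-30903547 (minus), in the order shown. The PU.1 letters were found in Ltc4s, Hpgds and Ptgs1, on the opposite strand in Ltc4s, and in 13.5% of 27025 promoters of the same length. The STAT6 letters were found in Ptges and in 6.99% of all promoters. None of these letters occurred in the Alox5 window, and the TATA box occurred in 14.2% of all promoters. Promoters of 8 of the 10 genes were matched in all. Of the 3 not shown here, Tbxas1 held all 3 motifs, its TATA box and PU.1 letters lying next to each other, whereas Lta4h and Ptgs2 held none. A match describes the letters only.

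Expression is given as CPM, counts scaled to the TMM-normalized library size, for each library or as mean ± SD (n = 3). A gene was called when the adjusted p of edgeR's quasi-likelihood test, corrected with Benjamini-Hochberg over 22118 genes in each comparison, was under 0.05. At these depths 3 counts in a library correspond to 0.162 to 0.239 CPM, a limit that covers counting error only. In these sorted bulk samples, fewer cells of a type and less RNA per cell cannot be told apart. The monocyte and macrophage markers summed to 7050 to 9000 CPM in Classical mono, 2360 to 3370 in Early CMDM, 5730 to 6670 in Late CMDM and 9000 to 10100 in Resident-like libraries. Most of each sum was Lyz2, at 5810, 1760, 4030 and 7310 CPM on average, whereas Csf1r averaged 395 in Classical mono and 391 in Early CMDM. Of the 9 markers, 0 were called higher and 5 lower in Early CMDM than in Classical mono, and 4 higher and 3 lower in Late CMDM. Of all tested genes, 24.2% were called higher and 20.6% lower in the first comparison, and 18.1% and 17.5% in the second. Keratinocyte markers summed to 17300 to 27500 CPM in Early CMDM, against at most 4090 in any library of another fraction. When libraries were scaled instead by 10 leukocyte genes such as Ptprc and Coro1a, the median log2 fold change of all genes moved to 1.5 in Early CMDM over Classical mono, -0.95 in Late over Early CMDM and -1.4 in Resident-like over Early CMDM. The shift was 0.52 in Late CMDM over Classical mono, 0.09 in Resident-like over Classical mono and -0.45 in Resident-like over Late CMDM. Directions below that turn under this scaling are named beside the result.

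**Figure D1:**
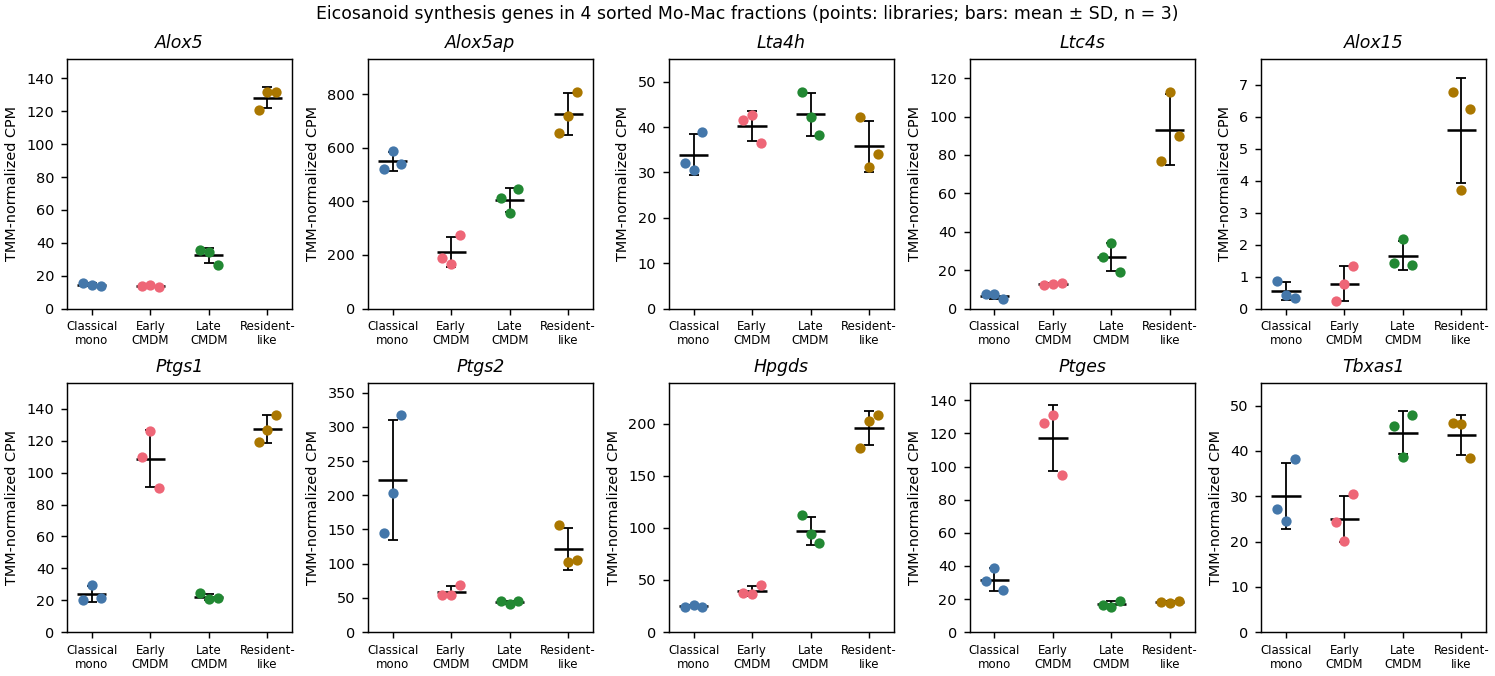
TMM-normalized CPM (linear axes from 0) of the 10 genes in the 4 fractions. Points are libraries and bars are the mean ± SD of 3 libraries, and a reader should see that Alox5, Ltc4s, Hpgds and Alox15 are highest in every Resident-like library, Ptges is highest in every Early CMDM library, and Lta4h overlaps between all fractions.

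The first enzyme of the leukotriene branch, Alox5 (5-lipoxygenase; chr6:116410077-116461178, minus strand), was highest in Resident-like macrophages. Its CPM was 15.4, 14.5 and 14.0 in the Classical mono libraries and 13.9, 14.4 and 13.2 in Early CMDM. It was 35.6, 34.5 and 26.8 in Late CMDM and 121, 132 and 132 in Resident-like. The Classical mono and Early CMDM libraries overlapped (log2 fold change -0.08, 95% interval -0.33 to 0.16, adjusted p = 0.584), a difference that turned to 1.44 under leukocyte scaling. The other fractions were apart, with Late CMDM 2.20-fold over Classical mono (adjusted p = 8.38e-07) and Resident-like 3.98-fold over Late CMDM (adjusted p = 2.75e-09). Resident-like (128 ± 6.24 CPM) stood 8.75-fold over Classical mono (14.7 ± 0.679 CPM), a log2 difference of 3.13 (SE 0.11, adjusted p = 5.27e-11).

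Alox5ap, which encodes FLAP (chr5:149264767-149288153, plus strand), showed a different order and was lowest in Early CMDM. Its CPM was 519, 589 and 539 in Classical mono, 189, 168 and 274 in Early CMDM, 413, 357 and 446 in Late CMDM, and 653, 718 and 809 in Resident-like. No libraries of a pair of fractions overlapped. Early CMDM was 2.61-fold below Classical mono (log2 -1.38, SE 0.16, adjusted p = 2.63e-06), but under leukocyte scaling this difference was 0.08 and not called. Resident-like over Classical mono was not called (log2 0.40, 95% interval 0.08 to 0.73, adjusted p = 0.071) but was called without the filter on low counts (adjusted p = 0.0284) and in the 6 libraries of the pair alone (adjusted p = 0.024). Late CMDM was just past the threshold below Classical mono (log2 -0.44, adjusted p = 0.0372). The last call was lost without any 1 of the 3 Classical mono libraries or without Late CMDM library 1 or 2 (log2 -0.47 to -0.35) and with DEGES (log2 -0.39), and leukocyte scaling turned it to 0.09. The increase from Early to Late CMDM (log2 0.95, adjusted p = 2.18e-04) was 0.0086 under leukocyte scaling and not called, and that from Late CMDM to Resident-like (log2 0.84, adjusted p = 7.49e-04) was 0.40 and not called. The gene most like Alox5ap over the 12 libraries was Arhgdib (Pearson r = 0.993), itself one of the 10 leukocyte genes.

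The enzymes that divide LTA4 differed in their pattern. Lta4h (LTA4 hydrolase; chr10:93453411-93484875, plus strand) was called in none of the 6 comparisons, with CPM of 30.6 to 39.0 in Classical mono, 36.4 to 42.7 in Early CMDM, 38.3 to 47.8 in Late CMDM and 31.3 to 42.1 in Resident-like. With edgeR 1 of the 6 had an unadjusted p under 0.05. DESeq2 and RLE called 0 of the 6, DEGES 2 and leukocyte scaling 5. Under leukocyte scaling its log2 fold changes were 1.79 and 0.87 in Early and Late CMDM over Classical mono, -0.92 in Late over Early CMDM, which had been 0.09, and -1.62 and -0.71 in Resident-like over Early and Late CMDM. With TMM the 95% intervals of its log2 fold changes lay between -0.53 and 0.61. The nearest to a call was Late CMDM over Classical mono (log2 0.34, adjusted p = 0.0565), which was called without Classical mono library 3 or Late CMDM library 3 (log2 0.45 and 0.41), with DEGES (0.38), without the filter on low counts (0.34) and in the 6 libraries of the pair alone (0.35). Early CMDM over Classical mono was called with DEGES (log2 0.34) and without Classical mono library 3 (log2 0.36), and Resident-like below Late CMDM without Resident-like library 1 (log2 -0.39).

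Ltc4s (LTC4 synthase; chr11:50236461-50238616, minus strand) was at different levels in all 4 fractions. Its CPM was 7.45, 7.59 and 4.91 in Classical mono, 12.2, 13.0 and 13.1 in Early CMDM, 26.9, 34.3 and 19.3 in Late CMDM, and 76.9, 113 and 89.8 in Resident-like. No libraries of different fractions overlapped, and every comparison was called. Early CMDM was 1.92-fold over Classical mono (adjusted p = 0.00266), Late CMDM 2.10-fold over Early CMDM (adjusted p = 8.72e-04) and Resident-like 3.47-fold over Late CMDM (adjusted p = 7.8e-06). Resident-like (93.2 ± 18.3 CPM) was 14.0-fold over Classical mono (6.65 ± 1.51 CPM; log2 3.81, SE 0.22, adjusted p = 9.1e-09). Under leukocyte scaling, Late over Early CMDM was 0.11 for Ltc4s and 0.24 for Alox5 and neither was called, whereas both were still called higher in Resident-like than in each other fraction.

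Alox15, the 12/15-lipoxygenase of peritoneal and other resident macrophages (chr11:70344152-70352031, minus strand), was near the lower end of detection in 3 fractions. Its CPM was 0.862, 0.44 and 0.335 in Classical mono, 0.247, 0.759 and 1.33 in Early CMDM, 1.43, 2.19 and 1.35 in Late CMDM, and 6.79, 3.70 and 6.24 in Resident-like. The Resident-like libraries were above all others, 3.33-fold over Late CMDM (adjusted p = 0.00197), 7.15-fold over Early CMDM (adjusted p = 2.57e-05) and 10.3-fold over Classical mono (adjusted p = 1.81e-05). Without Early CMDM library 3, Resident-like over Early CMDM moved from log2 2.84 to 3.46, Late over Early CMDM from 1.10 (adjusted p = 0.0804) to a called 1.72, and Early CMDM over Classical mono from 0.52 (adjusted p = 0.456) to -0.09. Under leukocyte scaling Early CMDM over Classical mono was 1.95 and called, and Late over Early CMDM was 0.21 and not called. Late CMDM over Classical mono (log2 1.63, adjusted p = 0.0147) was not called without Classical mono library 3 (log2 1.38) or Late CMDM library 2 (log2 1.36).

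Both cyclooxygenases varied, in unlike ways. Ptgs1 (COX-1, generally constitutive; chr2:36230426-36252272, plus strand) was high in Early CMDM and Resident-like and low in the other fractions. Its CPM was 20.2, 29.6 and 21.5 in Classical mono, 110, 126 and 90.2 in Early CMDM, 24.5, 21.0 and 21.4 in Late CMDM, and 119, 127 and 136 in Resident-like. The high and low pairs of fractions did not overlap with each other. Early CMDM was 4.58-fold over Classical mono (log2 2.20, SE 0.15, adjusted p = 1.26e-08) and Late CMDM was 4.89-fold below Early CMDM (log2 -2.29, SE 0.15, adjusted p = 7.15e-08). Resident-like was 5.71-fold over Late CMDM (log2 2.51, SE 0.15, adjusted p = 9.15e-09). Neither Late CMDM against Classical mono (log2 -0.09, 95% interval -0.41 to 0.22, adjusted p = 0.669) nor Resident-like against Early CMDM (log2 0.22, 95% interval -0.07 to 0.52, adjusted p = 0.201) was called. Under leukocyte scaling the first was 0.45 and not called, whereas the second became -1.26 and was called lower, and without Classical mono library 2 the first was 0.10.

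Ptgs2 (COX-2, the inducible form; chr1:150100031-150108227, plus strand) was highest in Classical mono. Its CPM was 145, 204 and 317 in Classical mono, 54.2, 54.4 and 68.9 in Early CMDM, 44.9, 41.0 and 45.4 in Late CMDM, and 157, 102 and 106 in Resident-like. Classical mono had the widest spread and overlapped with Resident-like, but with neither CMDM fraction. Early CMDM was 3.75-fold below Classical mono (log2 -1.91, SE 0.25, adjusted p = 2.62e-05) and Late CMDM 5.07-fold below it (log2 -2.34, SE 0.25, adjusted p = 7.87e-06). Late against Early CMDM was not called (log2 -0.44, 95% interval -0.96 to 0.09, adjusted p = 0.203), but was called in the 6 libraries of the pair alone (log2 -0.43, adjusted p = 0.00917) and under leukocyte scaling (log2 -1.4). Resident-like was 2.78-fold over Late CMDM (adjusted p = 5.7e-04) and 2.05-fold over Early CMDM (adjusted p = 0.00307), the latter turning to -0.37 under leukocyte scaling. The lower level in Resident-like than in Classical mono (log2 -0.87, adjusted p = 0.0165) was not called without Classical mono library 3 (log2 -0.52) or without Resident-like library 2 or 3 (log2 -0.75 and -0.78), nor without the filter on low counts or in the 6 libraries of the pair alone (log2 -0.86 in both). Under leukocyte scaling, Early CMDM below Classical mono was -0.41 and not called. T and NK cell markers summed to 231 to 301 CPM in Classical mono against 22.8 to 51.9 in the other fractions, and their part in the Ptgs2 result was not tested.

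Among the terminal synthases, Hpgds (hematopoietic PGD2 synthase; chr6:65117293-65144908, minus strand) followed the order of Ltc4s. Its CPM was 24.3, 26.1 and 24.1 in Classical mono, 38.0, 36.2 and 45.0 in Early CMDM, 112, 94.3 and 85.8 in Late CMDM, and 177, 202 and 208 in Resident-like. The 4 fractions did not overlap, and all 6 comparisons were called. Early CMDM was 1.60-fold over Classical mono (adjusted p = 1.91e-04), Late CMDM 2.45-fold over Early CMDM (adjusted p = 6.59e-07) and Resident-like 2.02-fold over Late CMDM (adjusted p = 6.34e-06). Late over Early CMDM was 0.33 under leukocyte scaling and not called. Resident-like (196 ± 16.4 CPM) was 7.89-fold over Classical mono (24.8 ± 1.07 CPM; log2 2.98, SE 0.12, adjusted p = 1.12e-10).

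Ptges (microsomal PGE2 synthase-1; chr2:30889471-30929863, minus strand) was highest in Early CMDM. Its CPM was 30.8, 39.0 and 25.3 in Classical mono, 126, 131 and 94.7 in Early CMDM, 16.4, 15 and 18.9 in Late CMDM, and 18.1, 17.3 and 19.1 in Resident-like. Every Early CMDM library was above every library of the other fractions, and the Late CMDM and Resident-like libraries overlapped. Early CMDM was 3.69-fold over Classical mono (log2 1.88, SE 0.15, adjusted p = 8.02e-08), 6.99-fold over Late CMDM (adjusted p = 4.91e-08) and 6.45-fold over Resident-like (adjusted p = 3.91e-09). Late CMDM and Resident-like were also below Classical mono (log2 -0.92 and -0.80, adjusted p = 2.74e-04 and 0.00113), the former being -0.39 and not called under leukocyte scaling. Resident-like and Late CMDM did not differ past the threshold (log2 0.12, 95% interval -0.23 to 0.46, adjusted p = 0.643; -0.33 under leukocyte scaling, not called). The locus overlaps Gm13400 on the same strand, whose reads the counting could split from it.

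Tbxas1 (thromboxane A2 synthase; chr6:38875404-39084585, plus strand) had no called difference above 1.76-fold. Its CPM was 24.6 to 38.3 in Classical mono, 20.2 to 30.4 in Early CMDM, 38.7 to 47.9 in Late CMDM and 38.5 to 46.2 in Resident-like. Late CMDM and Resident-like were 1.76-fold and 1.74-fold over Early CMDM (adjusted p = 0.00151 and 0.00104), but under leukocyte scaling these log2 differences of 0.82 and 0.80 became -0.13 and -0.59. The smaller differences of both from Classical mono (log2 0.55 and 0.53, adjusted p = 0.0177 and 0.0286) were each lost on leaving out any 1 of 4 libraries. For Late CMDM these were Classical mono 1 or 2 and Late CMDM 1 or 3 (log2 0.42 to 0.53), and for Resident-like they were Classical mono 1 or 2 and Resident-like 1 or 2 (log2 0.41 to 0.50). Early CMDM against Classical mono (log2 -0.27, 95% interval -0.63 to 0.09) was not called but became a called 1.21 under leukocyte scaling, and Resident-like against Late CMDM (log2 -0.02, 95% interval -0.37 to 0.34) was not called. The locus overlaps Gm23010 on the same strand.

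**Figure D2:**
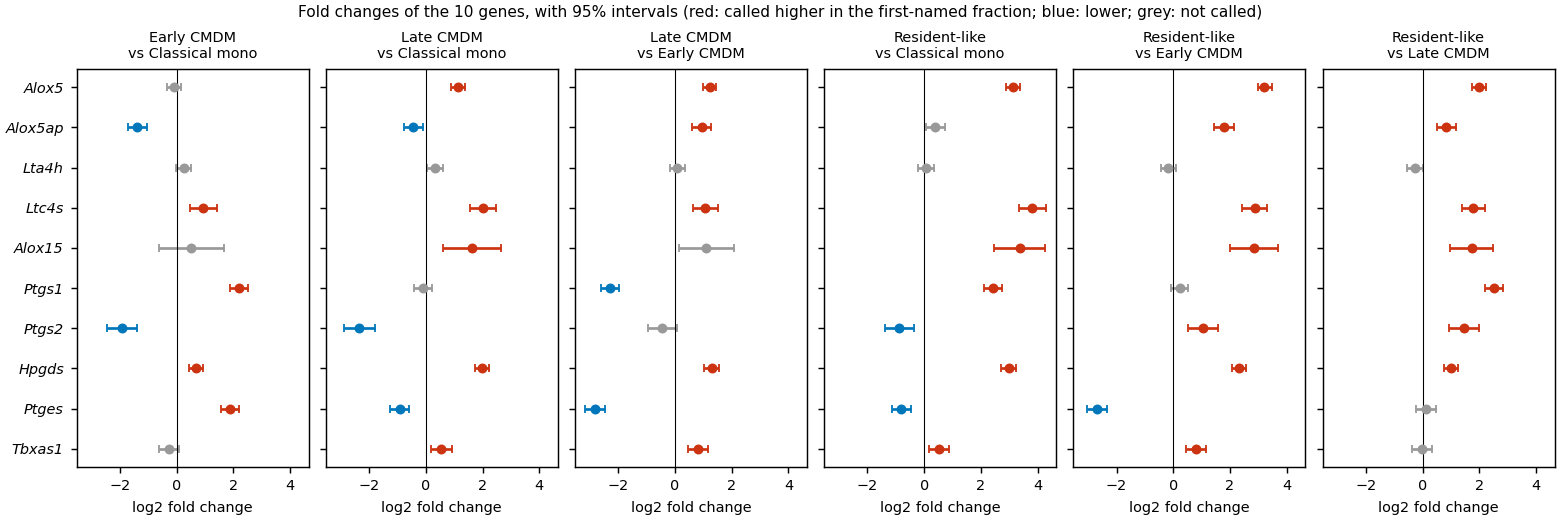
Log2 fold changes (x axis) of the 10 genes in the 6 comparisons, first-named fraction over the second, with 95% intervals from the fit over 12 libraries. Red and blue points passed the threshold as higher or lower and grey points did not, and a reader should see that 7 of 10 genes are red and none blue in Resident-like over Late CMDM.

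Counted by comparison, Early CMDM had 4 of the 10 genes called higher than Classical mono (Ltc4s, Ptgs1, Hpgds and Ptges) and 2 lower (Alox5ap and Ptgs2), where 24.2% of all tested genes were called higher and 20.6% lower. Late CMDM over Classical mono had 5 higher and 3 lower, against 18.1% and 17.5% of all genes. Late over Early CMDM had 5 higher and 2 lower, against 14.4% and 17.5%. The median log2 fold changes of the 10 genes were 0.39, 0.44 and 0.88 in these comparisons, and those of all tested genes -0.01, -0.01 and 0.02. Under leukocyte scaling these counts became 8 higher and 0 lower, 6 higher and 1 lower, and 0 higher and 4 lower. Of all genes called under it, 19287 of 19862 were higher in Early CMDM over Classical mono. Late over Early CMDM had 139 of 16185 higher, and the median of all genes in Late CMDM over Classical mono was 0.52.

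Resident-like macrophages had 6 of the 10 genes called higher than Classical mono (Alox5, Ltc4s, Alox15, Ptgs1, Hpgds and Tbxas1) and 2 lower (Ptgs2 and Ptges), where 10.8% and 12.9% of all tested genes were called. Over Early CMDM 7 were higher and 1 lower, against 21.4% and 25.1%, and over Late CMDM 7 were higher and 0 lower, against 12.7% and 15.4%. In this last comparison edgeR gave 0 of the 10 lower also at an unadjusted p under 0.05, and DESeq2 0. The median log2 fold changes of the 10 genes were 1.48, 1.41 and 1.24, against 0.0011, 0.03 and 0.0028 for all tested genes. Leukocyte scaling gave 6 higher and 2 lower over Classical mono, 5 and 4 over Early CMDM, and 6 and 1 over Late CMDM. Of all genes called under it, 1703 of 3456 were higher over Classical mono and 385 of 19378 over Early CMDM. The comparisons share fractions and are not independent of each other.

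Levels were compared between genes per kilobase of the longest annotated transcript. Whether the reads cover whole transcripts or one end of them is not given in the sources used here, so the per-kilobase levels hold only if they cover whole transcripts. On this scale Alox5ap was the highest of the 10 in every fraction, at 439, 168, 324 and 581 CPM per kb in Classical mono, Early CMDM, Late CMDM and Resident-like. Alox15 was the lowest in every fraction. The second highest was Ptgs2 in Classical mono (49.8 CPM per kb), Ptgs1 in Early CMDM (38.0), and Ltc4s in Late CMDM and Resident-like (37.5 and 130). With the mean transcript length the second in Early CMDM was Ptges (87.6) in place of Ptgs1 (72.2), and the other second places were the same.

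Ratios of paired enzymes within a library do not depend on how libraries were scaled. The ratio of Ptgs1 to Ptgs2 per kb was 0.217, 0.226 and 0.105 in Classical mono, 3.16, 3.60 and 2.03 in Early CMDM, 0.845, 0.796 and 0.734 in Late CMDM, and 1.18, 1.94 and 2 in Resident-like. Per kb, COX-1 mRNA exceeded COX-2 mRNA in every Early CMDM and Resident-like library and in no other. The mean transcript length gave the same split, and the longest protein-coding transcripts of both genes are their longest, so that length adds no check. The split depends on dividing by length. Without it, Resident-like library 1 had 119 CPM of Ptgs1 and 157 of Ptgs2, against 127 and 102 in library 2 and 136 and 106 in library 3. The ratio of Hpgds to Ptges was 0.74, 0.627 and 0.896 in Classical mono and 0.284, 0.26 and 0.445 in Early CMDM. It was 6.39, 5.91 and 4.26 in Late CMDM and 9.21, 11 and 10.2 in Resident-like, so that Hpgds was below Ptges in the Ly6Chi fractions and above it in the Ly6Clo fractions. With the mean length these ratios were 0.344 to 0.492, 0.143 to 0.244, 2.34 to 3.51 and 5.05 to 6.02 in the same order, and with the longest protein-coding transcript the Classical mono ratio reached 1. Ptges is not the only PGE2 synthase gene, and Ptges3, outside this ratio, averaged 105, 94, 111 and 137 CPM in these fractions. The ratio of Ltc4s to Lta4h was 0.567 to 1.12 in Classical mono, 1.32 to 1.62 in Early CMDM, 2.27 to 3.66 in Late CMDM and 8.23 to 16.3 in Resident-like, with no overlap between fractions. With the mean length it was 0.237 to 0.467, 0.552 to 0.677, 0.946 to 1.53 and 3.43 to 6.79 in these fractions, so that its place above or below 1 depends on the length used. These ratios had no test of their own.

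**Figure D3:**
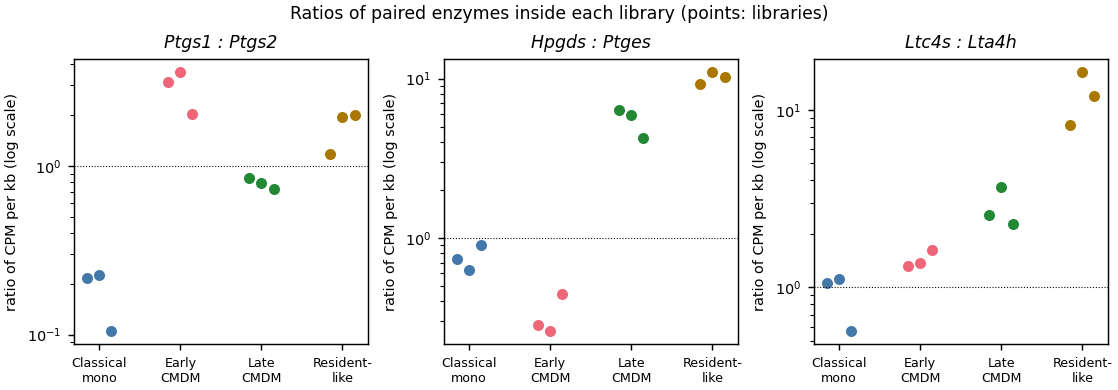
Ratios of CPM per kb (log axis) of Ptgs1 to Ptgs2, Hpgds to Ptges and Ltc4s to Lta4h in each of the 12 libraries, with a dotted line at a ratio of 1. A reader should see the Hpgds to Ptges ratio below 1 in the 6 Ly6Chi libraries and above 4 in the 6 Ly6Clo libraries, and the highest Ltc4s to Lta4h ratios, 8.23 to 16.3, in Resident-like.

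Over the 12 libraries, Alox5, Ltc4s and Hpgds had pairwise Pearson r of 0.94 to 0.97 in log2 CPM, Alox5 and Alox15 of 0.91, Ptges and Tbxas1 of -0.85, and Ptgs1 and Ptgs2 of -0.07. These correlations are descriptions, since libraries of a fraction share its level. Outside the 10 genes, the most similar among 18876 genes were Mgl2 and Xlr for Alox5 (r = 0.992 and 0.991), Tbc1d4 and Tmco3 for Ltc4s (0.981 and 0.98), Slc12a5 and Traf5 for Alox15 (0.954 and 0.946), and Fcrls and Sult1a1 for Hpgds (0.987 and 0.986). For Ptges they were Slc6a20a and Il33 (0.994 and 0.992), for Ptgs1 Wnk2 and Plek2 (0.983 and 0.98), and for Ptgs2 Fam117b and Rbm42 (0.987 and 0.985). Lta4h had its highest values with Ccdc126 and Mtf1 (0.902 and 0.891), Tbxas1 with Pttg1ip and Bid (0.976 and 0.975), and Alox5ap with Arhgdib and Capza2 (0.993 and 0.987).

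Markers of other cell types moved with several of these genes. In Resident-like libraries the 10 mast cell and basophil markers summed to 111 to 217 CPM, against 51.6 to 104 in Classical mono, 22.4 to 26.9 in Early CMDM and 19.3 to 53.7 in Late CMDM, and none of the 10 was at 0 in all 3 libraries of a fraction. They were called higher in Resident-like than in Early and Late CMDM in 9 of 9 tested, and than in Classical mono in 4 of 9. Of all tested genes, 21.4%, 12.7% and 10.8% were called higher in Resident-like than in Early CMDM, Late CMDM and Classical mono. The 9 dendritic and Langerhans cell markers summed to 1530 to 1780 CPM in Resident-like against 254 to 425 in the other fractions, with Cd207 at 819 against at most 64.4 CPM on average. Of the 9, 7 were called higher and 0 lower than in Early CMDM, and 6 and 0 than in Late CMDM. The shares of all tested genes were 21.4% and 25.1% in the former comparison and 12.7% and 15.4% in the latter. Against Classical mono the split was 3 higher and 3 lower, where 10.8% and 12.9% of all tested genes were called. In these cells gated as SiglecF-, the 7 eosinophil markers summed to 30.8 to 33.6 CPM in Resident-like against 6.26 to 10.9 in the other 3 fractions. The largest part in Resident-like was Ear1, at 15.6 CPM on average, and Ccr3, Siglecf and Ear6 were also highest there. Il5ra averaged 6.98 CPM against 6.83 in Classical mono, and Prg2 0.582 against 0.503 in Early CMDM. Epx was at 0 in the other fractions and had at most 3 counts in a Resident-like library. The part of these mast cell, dendritic and eosinophil lists in the Resident-like levels of Alox5, Ltc4s, Alox15, Hpgds and Ptgs1 was not tested. In Early CMDM, gated as CD45+CD11b+ like the other fractions, all 8 keratinocyte markers were called higher than in each other fraction. Of all tested genes, 24.2%, 17.5% and 25.1% were called higher in Early CMDM than in Classical mono, Late CMDM and Resident-like. Krt10 averaged 11300 CPM against 1120 to 1320, and the part of these markers in the Early CMDM levels of Ptgs1 and Ptges was not tested. Fibroblast markers summed to 2990 to 4210 CPM in Early CMDM, 3250 to 5590 in Classical mono and 276 to 499 in the Ly6Clo fractions. Their part in the levels of Ptgs1 and Ptges was not tested either.

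Other genes of the pathway were counted from a list of 58, of which 57 were in the table and 53 tested. Early CMDM over Classical mono had 19 higher and 14 lower (24.2% and 20.6%), Late CMDM over Classical mono 17 and 15 (18.1% and 17.5%), and Late over Early CMDM 16 and 17 (14.4% and 17.5%). Resident-like had 13 higher and 10 lower than Classical mono (10.8% and 12.9%), 21 and 19 than Early CMDM (21.4% and 25.1%), and 13 and 15 than Late CMDM (12.7% and 15.4%). The percentages are the shares of all tested genes called in that comparison with TMM. They apply to the TMM counts of the role groups below as well. Under leukocyte scaling these splits became 43 and 4, 33 and 8, 1 and 34, 11 and 8, 3 and 41, and 9 and 25, in the same order. Of all genes called under it, 19287 of 19862 were higher in Early CMDM over Classical mono. Late over Early CMDM had 139 of 16185 higher. Resident-like had 1703 of 3456 higher over Classical mono and 385 of 19378 over Early CMDM. The median of all genes moved to 0.52 in Late CMDM over Classical mono and -0.45 in Resident-like over Late CMDM. Whether these lists moved beyond the shift of all genes was not tested. Of the 13 tested receptors, 9 were lower and 1 higher in Early CMDM than in Classical mono, and 8 lower and 1 higher in Late CMDM, splits that turned to 3 lower and 8 higher and to 4 and 4 under leukocyte scaling. In Resident-like 8 receptors were higher and 2 lower than in Early CMDM (1 and 7 under leukocyte scaling), and 5 were called higher than in Late CMDM (3 higher and 3 lower). The 19 other synthases and peptidases included 9 higher and 2 lower in Early CMDM than in Classical mono (16 higher), and 11 lower and 4 higher in Resident-like than in Early CMDM (17 and 2).

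The 12 pathway genes named here kept their direction and their call under leukocyte scaling. Among the phospholipases, Pla2g2f was 58.4 CPM in Early CMDM and 4.56 in Resident-like (log2 -3.67, SE 0.25, adjusted p = 2.5e-08). Over the 4 fractions it averaged 6.04, 58.4, 6.59 and 4.56 CPM beside keratinocyte marker sums of 2910, 23000, 3340 and 2450 CPM. The part of these markers in the levels of Pla2g2f was not tested. Pla2g2d and Pla2g2e, secreted phospholipases of the same family, were both higher in Late CMDM than in Classical mono, at 31.0 against 4.54 CPM (adjusted p = 8.47e-07) and 7.34 against 1.26 CPM (adjusted p = 1.94e-07). The epidermal lipoxygenases Alox12b and Alox12e were 21.2 and 140 CPM in Early CMDM against 1.46 and 11.2 in Resident-like (adjusted p = 8.16e-10 and 6.23e-07), where the keratinocyte markers were also highest in Early CMDM. Dpep1, a dipeptidase that converts LTD4 to LTE4, was 21.8 CPM in Classical mono and 1.30 in Resident-like (log2 -4.07, SE 0.31, adjusted p = 1.8e-07). Over the 4 fractions Dpep1 averaged 21.8, 14.6, 1.9 and 1.3 CPM beside fibroblast marker sums of 4530, 3790, 485 and 321 CPM, and the part of these markers was not tested.

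Of the genes for breakdown and transport, Cyp4f18, an LTB4-oxidizing enzyme, fell from 15.8 CPM in Classical mono to 2.27 in Late CMDM (adjusted p = 2.89e-08). Ptgr1, which inactivates LTB4 and prostaglandin metabolites, was 68.0 CPM in Late CMDM against 27.3 in Classical mono (adjusted p = 2.3e-07). The prostanoid exporter Abcc4 was 38.5 CPM in Resident-like against 12 in Late CMDM (adjusted p = 1.81e-07). Among the receptors, the thromboxane receptor Tbxa2r was 14.3 CPM in Classical mono and 0.946 in Resident-like (adjusted p = 6.58e-07), and Fpr2, a receptor for formyl peptides and lipoxin A4, was 28.5 CPM in Classical mono and 2.45 in Early CMDM (adjusted p = 1.83e-08). The PGE2 receptor Ptger3 was 15.3 CPM in Resident-like and 1.73 in Late CMDM (log2 3.12, SE 0.22, adjusted p = 3.45e-08). The part of mast cell, dendritic, Langerhans cell and eosinophil markers in the Resident-like level of Ptger3 was not tested.

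**Figure D4:**
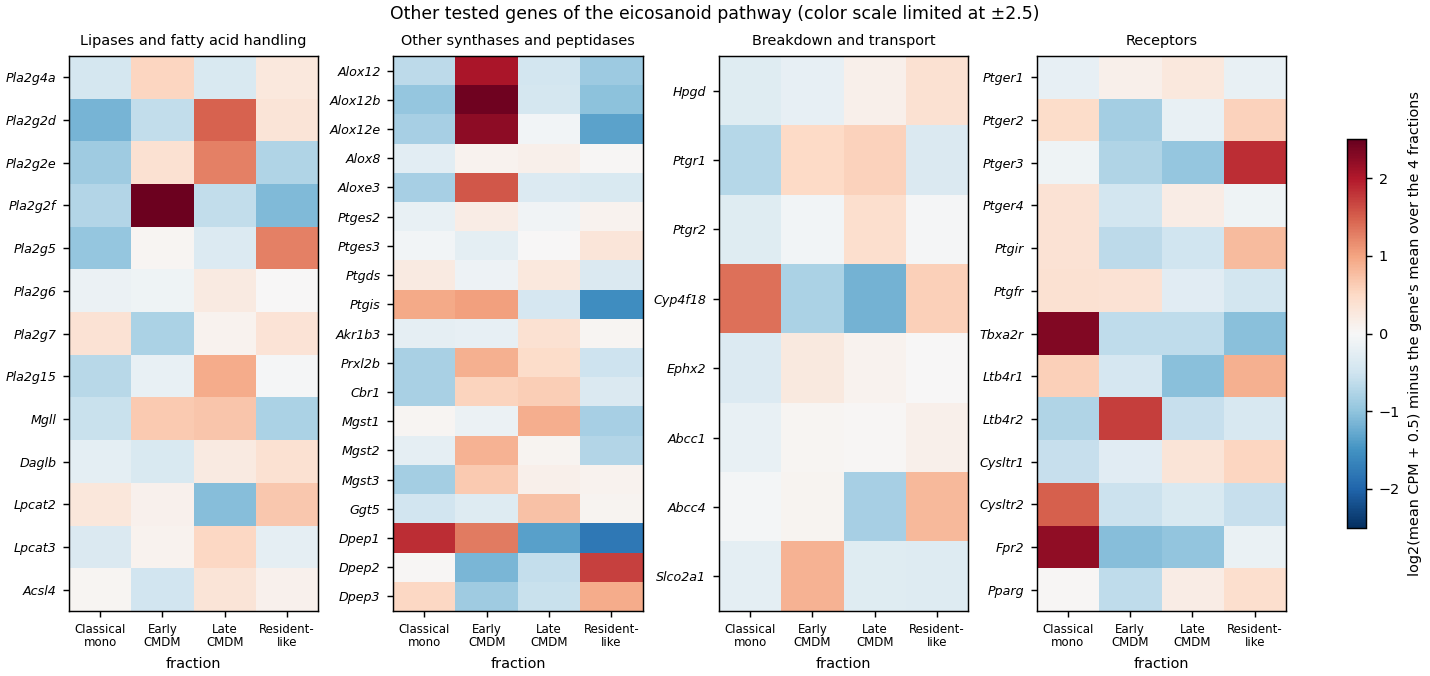
The 53 other tested pathway genes (rows) in the 4 fractions (columns), colored by log2(mean CPM + 0.5) minus the gene's own mean over the fractions, in 4 panels by role. A reader should see Alox12b, Alox12e and Pla2g2f highest in Early CMDM, Tbxa2r and Fpr2 highest in Classical mono, and Ptger3 highest in Resident-like.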

How the data were processed

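The authors trimmed reads with cutadapt 4.1, mapped them to reference RNA of GRCm38 with Bowtie2 2.4.5 on 1 strand, and summed read counts by gene symbol. The deposited values are these raw counts, without normalization. Paralogs and same-strand overlaps could split reads.

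edgeR 4.0.16 in R 4.3.3 was run on all 12 libraries with TMM normalization, filterByExpr by fraction, robust quasi-likelihood fits and 1 coefficient per fraction. Tests were two-sided, in 6 comparisons, and 22118 of 37775 genes (58.6%) entered them. The biological coefficient of variation was 13.2%. Counts of replicates differed beyond sampling noise (chi-square over degrees of freedom 4.24 to 21.9), and all were kept as separate samples. The script was tested on simulated data. Positions and transcript lengths are from GENCODE M21.

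All 10 genes were described. Pathway genes named were the 3 of each role with the largest called log2 fold change, at least 5 CPM in the higher fraction and no overlap. The 2 genes most like each were ranked by Pearson r of log2 CPM with a prior count of 2, among genes with a mean of at least 1 CPM. The genes and lists were chosen with earlier results of these data known. Alternatives were DESeq2 1.42.0, RLE, DEGES in 3 rounds (TMM without the genes called), scaling by 10 leukocyte genes, no filter, the 6 libraries of a pair, a replicate block, an adjusted p of 0.01, an absolute log2 fold change from 1, omission of each library and other transcript lengths. The longest protein-coding transcript was chosen after seeing the data.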

Additional observations from a re-analysis of the deposited data

How the results depend on the processing

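The 10 genes' log2 fold changes were recomputed in all 6 comparisons under the other tools, scalings, filter and fits, and without each library in the 3 comparisons it enters, and 713 values kept their direction and their side of the threshold. Another 20 gained a call, 28 lost one and 19 changed sign. Scaling by leukocyte genes moved the number of genes called to 19862 in Early CMDM over Classical mono (19287 higher), 16185 in Late over Early CMDM (139 higher), 3456 in Resident-like over Classical mono and 19378 in Resident-like over Early CMDM (385 higher), from 9925, 7045, 5251 and 10297. It left 4 of the 10 genes called in Late over Early CMDM, 0 of them higher. Under this scaling the sign changed in Early CMDM over Classical mono for Alox5 (1.44), Alox5ap (0.08) and Tbxas1 (1.21), in Late CMDM over Classical mono for Alox5ap (0.09) and Ptgs1 (0.45), in Late over Early CMDM for Lta4h (-0.92) and Tbxas1 (-0.13), in Resident-like over Early CMDM for Ptgs1 (-1.26), Ptgs2 (-0.37) and Tbxas1 (-0.59), and in Resident-like over Late CMDM for Ptges (-0.33). The scaling shifts the median of all genes by construction. With DEGES, Alox5 in Early CMDM over Classical mono was 0.0056. An adjusted p under 0.01 left 5 of the 10 genes called in Late CMDM over Classical mono, and 3427 and 3826 genes in Resident-like over Classical mono and over Late CMDM. A log2 fold change of at least 1 left 4427, 3149, 2631, 2272, 4683 and 2297 genes in the 6 comparisons, in the order Early CMDM over Classical mono, Late CMDM over Classical mono, Late over Early CMDM, then Resident-like over Classical mono, Early CMDM and Late CMDM. It left 5 of the 10 genes in Late CMDM and in Resident-like over Classical mono, and 19, 14, 11, 25 and 16 of the pathway list in the last 5. Leaving out 1 library changed the sign of 6 values, and the ranges over the left-out libraries were -0.19 to 0.10 for Ptgs1 in Late CMDM over Classical mono, -0.09 to 1.00 for Alox15 in Early CMDM over Classical mono, -0.10 to 0.06 for Tbxas1 in Resident-like over Late CMDM, and -0.05 to 0.19 for Lta4h in Resident-like over Classical mono. With the mean transcript length in place of the longest, Alox5ap stood 15.1 times above the next gene per kb in Late CMDM and 7.54 times in Resident-like. Another 13 per-kb ratios moved by more than 1 SD under other lengths, by the same factor in every fraction.

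The labels do not state whether replicate numbers pair the libraries, and the main fit did not pair them. Same-numbered libraries of different fractions had deviations correlated from -0.099 to 0.248 (18 pairs), against -0.215 to 0.171 for other numbers (36 pairs). These ranges overlap and cannot decide the question. Of the same-numbered pairs 16 were above 0 and 4 above 0.1, against 11 and 1 of the others, and 10 of 12 libraries correlated best on average with their own number, a hint from the data and not the design. With a replicate block, 6, 9, 7, 9, 8 and 7 of the 10 genes were called in the 6 comparisons in the same order, against 6, 8, 7, 8, 8 and 7 without the block. The calls gained were Lta4h in Late CMDM over Classical mono (0.33, adjusted p = 0.046) and Alox5ap in Resident-like over Classical mono (0.39, adjusted p = 0.0313), and Tbxas1 in Resident-like over Late CMDM was 0.0019. Counting error weighs on Alox15, with under 3 CPM in every library of 3 fractions.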
